A study of Mus musculus with 6 samples.

Results

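A set of 10 epididymal genes was followed in the testis RNA of mice lacking *Prss55*, a serine protease gene expressed in testis, and of wild-type (wt) mice. They are *Rnase9*, *Rnase10*, *Lcn5*, *Lcn8*, *Lcn9*, *Crisp1*, *Cst8*, *Cst11*, *Adam7* and *Gpx5*, 10 of the 27376 gene names on the array, and they are read by the 11 probes that carry these names, with 2 probes for *Lcn9* and 1 for each other gene. The question was whether traces of epididymis moved together from array to array or whether only single genes differed by genotype. Total RNA from testis was hybridized to single-dye (Cy3) whole mouse genome oligonucleotide arrays, 1 array per sample, with 3 samples of genotype Prss55KO and 3 labelled WT. The *Prss55*-/- mice carry an allele made by homologous recombination, so that every cell of the body lacks the intact gene. All samples came from males of a mixed 129Sv/C57BL/6 background aged 6-8 weeks. The study's methods give 3 mice of each genotype. Replicate numbers below are those of the labels and have no order.

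The epididymis is the duct in which sperm leaving the testis mature. Its epithelium secretes proteins that coat or protect the sperm, and several families, among them lipocalins, cystatin-related proteins, ribonuclease A relatives without ribonuclease activity and beta-defensins, have members used mainly there. The duct begins beside the testis, joined to it by the efferent ducts, so that pieces of it, of efferent duct or of the epididymal fat pad can be carried along when a testis is taken out. Some genes with an epididymal name are also used by germ cells, and *Cst8* (cystatin-related epididymal spermatogenic) is known from both tissues.

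The arrays were alike in quality. Each holds 43379 spots of 41174 probes besides controls, 69.5% to 72.9% of the spots lay well above background, and 0 were saturated. The lowest processed signal with the scanner software's well-above-background call was 29.1 to 36.6, depending on the array, and a brighter spot can lack the call. No slide held both genotypes (1 slide carried the *Prss55*-/- samples and 2 carried the wt samples), and slide and genotype cannot be told apart. *Prss55* itself read 15.08, 14.94 and 14.93 on the *Prss55*-/- arrays and 15.87, 15.78 and 16.01 on the wt arrays (normalized log2 signal, chr14:64694275-64694333). The difference of -0.90 (SE 0.08, limma adjusted p = 0.00995) left 53.5% of the wt signal. The study reported that *Prss55* RNA was absent by RT-PCR in testis of this genotype, and the protein by Western blotting and immunofluorescence. The probe signal is thus not a measure of intact transcript. Whether this probe lies within the deleted part was not tested.

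Of the 10 genes, 2 were well above background on all 6 arrays (*Cst8* and *Lcn9*), 2 on 5 arrays (*Rnase10* and *Cst11*) and 6 on no array (*Rnase9*, *Lcn5*, *Lcn8*, *Crisp1*, *Adam7* and *Gpx5*). Over all probes of the array, 66.8% were well above background on all 6 arrays, 9.75% on some and 23.5% on none. The genes well above background on every array of at least 1 genotype were tested, which holds for 4 of the 10. None of the 4 passed the limma adjusted p of 0.05 in the comparison of *Prss55*-/- with wt testis, in which 1.22% of the 28606 tested probes did, 0.643% lower and 0.573% higher in *Prss55*-/- testis. *Rnase10* alone passed an unadjusted p of 0.05 (19.1% of all tested probes) and also a change of at least 2-fold (0.605% of all tested probes, 0.297% lower and 0.308% higher). *Rnase10* entered the test through its wt arrays, being well above background on 3 wt and 2 *Prss55*-/- arrays, and with only probes well above background on all arrays it was not tested and 0 of the 10 genes passed. The methods' t-test with the 2-fold threshold also called 1 of the 4, and 0 after adjustment. In whole testis, fewer cells of a type and less RNA per cell cannot be told apart.

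The probes on which the values rest are shown because each gene's reading is that of 1 short sequence. They are 60 bases long, and the first 30 are printed 5′ to 3′ from the array files, with runs of 4 or more of the same base in capitals.
Rnase10 (chr14:51629802-51629861): atggcaaagaataatgcttagtttctccta
Lcn9, brighter probe (chr2:25680287-25680801): aaagaTTTTTgcTTTTTatagaccatagag
Lcn9, other probe (chr2:25680052-25680236): tggcactctatgggcgctccatactgcttg
Cst8 (chr2:148631188-148631247): ctggaatggcgagttcaacctgttgagcaa
Cst11 (chr2:148594465-148594524): gtgctacttctcagtgtacgccattccctg
Positions are those of the array files on mouse build mm9, and whether a probe lies in coding sequence or in a UTR was not analysed here. Both *Lcn9* probes span more bases on the chromosome than they are long. The GC content of the 11 probes was 40% to 45%, against a median of 40% for the array. The brighter *Lcn9* probe and the *Cst11* probe have a longest run of 5 equal bases over their whole length, and 21.5% of all probes have a run of 5 or more. No other probe of the array shares a stretch of 16 bases with any of the 11, a measure of sequence likeness within the array.

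*Rnase10*, a secreted ribonuclease A relative of the first segment of the epididymis, passed the unadjusted and 2-fold thresholds with lower readings in *Prss55*-/- testis, but not the adjusted p. Its processed signal was 155, 25 and 49.2 on *Prss55*-/- replicates 1, 2 and 3 and 378, 430 and 430 on wt replicates 1, 2 and 3. The *Prss55*-/- replicate 2 was not well above background, *Prss55*-/- replicate 1 lay between the other *Prss55*-/- arrays and the wt arrays, and the genotypes did not overlap, as for 26.2% of all tested probes, 12.6% with *Prss55*-/- lower and 13.6% with it higher. On the normalized log2 scale the mean was 5.79 ± 1.36 (SD, n = 3) in *Prss55*-/- and 8.70 ± 0.1 (SD, n = 3) in wt. *Rnase10* differed by -2.91 on this scale (SE 0.64, 95% interval -4.46 to -1.36), with a limma unadjusted p of 0.0036 and a limma adjusted p of 0.0926. A two-sided exact permutation test over the arrays gave p = 0.1, the smallest that 3 against 3 allows. Measured means gave a 7.52-fold difference. With the signal of the dim array raised to the lowest one so called on that array, *Rnase10* was 6.6-fold lower in *Prss55*-/- testis. The other 2 *Prss55*-/- arrays kept their measured values. Neither fold is a lower limit, and the 95% interval allows a *Prss55*-/- level of 0.0454 to 0.389 times the wt level.

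The call for *Rnase10* turned on *Prss55*-/- replicate 1 and on the background correction. Without that array the difference was -3.66 (limma adjusted p = 0.00424), and with normexp, which adds a constant to every signal before the log2, it was -1.79 (limma adjusted p = 0.0212). Over all alternatives the difference lay between -3.66 and -1.79, with limma adjusted p from 0.00424 to 0.29. The sign was negative in all 13 alternatives that gave a value.

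**Figure D1:**
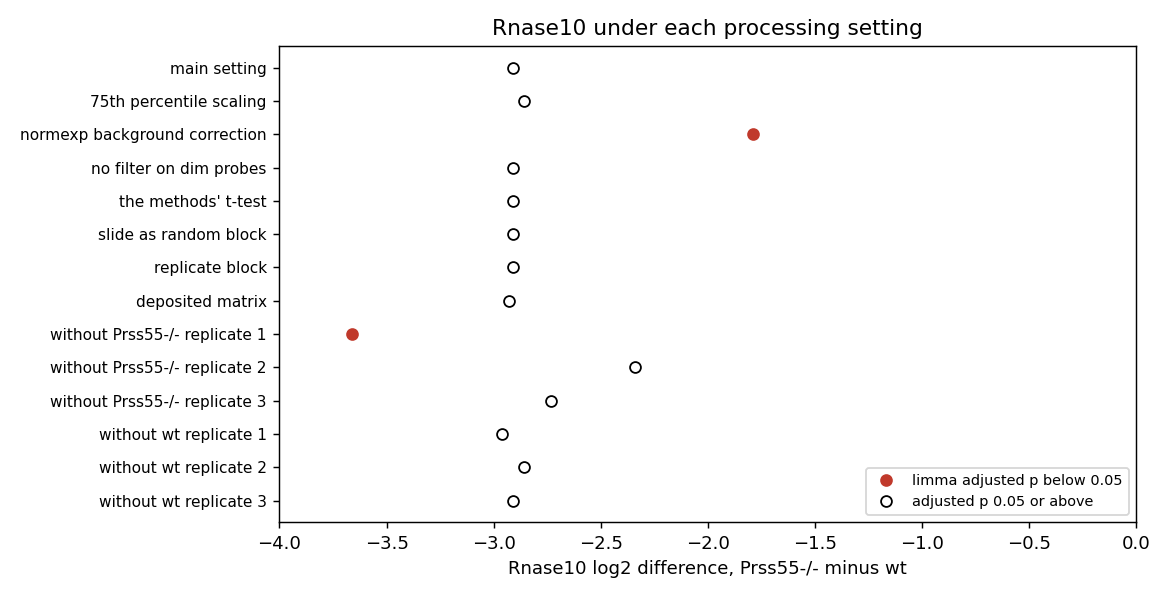
Log2 difference of *Rnase10* between *Prss55*-/- and wt testis (x axis) under the reported setting and 13 alternatives (y axis), with filled points for an adjusted p below 0.05. Every point lies between -3.66 and -1.79, and the filled ones are the normexp correction and the fit without *Prss55*-/- replicate 1.

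*Cst8*, a cystatin-related protein of spermatids and of the proximal epididymis, was bright in every testis. Its processed signal was 92647, 91524 and 92412 on the *Prss55*-/- arrays and 92233, 85236 and 99346 on the wt arrays. The normalized log2 signal ran from 16.39 to 16.52 in *Prss55*-/- and from 16.51 to 16.53 in wt testis, and the ranges overlap. The difference of -0.06 (SE 0.05, limma adjusted p = 0.55) has a 95% interval of -0.19 to 0.06, so that the data allow a *Prss55*-/- level of 0.878 to 1.05 times the wt level.

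*Lcn9*, an epididymal lipocalin that is a small carrier of lipid-like molecules, was dim but well above background on every array with its brighter probe. The processed signal of that probe was 83.3, 103 and 104 on the *Prss55*-/- arrays and 41.9, 62.7 and 91.2 on the wt arrays. It was lowest on wt replicate 1, and wt replicate 3 lay among the *Prss55*-/- arrays. The log2 difference was 0.53 (SE 0.25, 95% interval -0.07 to 1.14, limma adjusted p = 0.312). The other *Lcn9* probe failed the well-above-background call on every array, with signals of 12, 7.99 and 6.75 in *Prss55*-/- and 7.54, 10.3 and 6.97 in wt testis. The probes thus disagree on detection, and the order of the arrays on the dim one has no meaning.

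*Cst11*, another cystatin-related secreted protein of the epididymis, was likewise dim. Its processed signal was 68.8, 72.9 and 73.1 on the *Prss55*-/- arrays and 40, 52.5 and 71.7 on the wt arrays. The reading of 40, on wt replicate 1, was not well above background, and wt replicate 3 lay within the log2 range of the *Prss55*-/- arrays. The log2 difference was 0.32 (SE 0.18, 95% interval -0.11 to 0.75, limma adjusted p = 0.374). With normexp it was 0.03 (limma adjusted p = 0.891), while *Lcn9* was at 0.31 (limma adjusted p = 0.236). Over all alternatives the limma adjusted p ran from 0.103 to 0.891 for *Cst11* and from 0.106 to 0.557 for *Lcn9*. Exact permutation tests over the arrays gave p = 0.3 for *Cst11*, 0.2 for *Lcn9* and 0.3 for *Cst8*, where 0.1 is the smallest possible.

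The 6 genes seen on no array comprise *Rnase9*, the neighbour of *Rnase10*, the lipocalins *Lcn5*, a retinoic acid carrier, and *Lcn8*, the sperm-coating protein *Crisp1*, the membrane protein *Adam7* that epididymal cells pass to sperm, and *Gpx5*, a glutathione peroxidase of the epididymal lumen. With the second *Lcn9* probe they gave 42 readings, none well above background, from 5.89 to 22.1 with a median of 8.11. In 28 of the 42 the scanner software had put a surrogate value in place of a signal it could not tell from background noise, and 14 were real readings that it called positive and significant. A reading of this kind bounds the transcript from above and gives no level.

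*Lcn5*, *Lcn8* and *Gpx5* had surrogate values on all 6 arrays, between 5.89 and 10.1. *Crisp1* was positive and significant on all 6 arrays, at 15.9, 10.9 and 7.79 in *Prss55*-/- and 15.2, 8.71 and 18.7 in wt testis, with the genotypes mixed. *Rnase9* was positive and significant on 5 arrays, at 12, 11.4 and 9.76 in *Prss55*-/- and 8.12, 10.4 and 7.25 in wt testis, of which the last was a surrogate value, and the genotypes overlap. *Adam7* stood out on 1 array, with 22.1 on *Prss55*-/- replicate 1 and 6.4 to 7.45 on the others, all of them surrogate values.

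**Figure D2:**
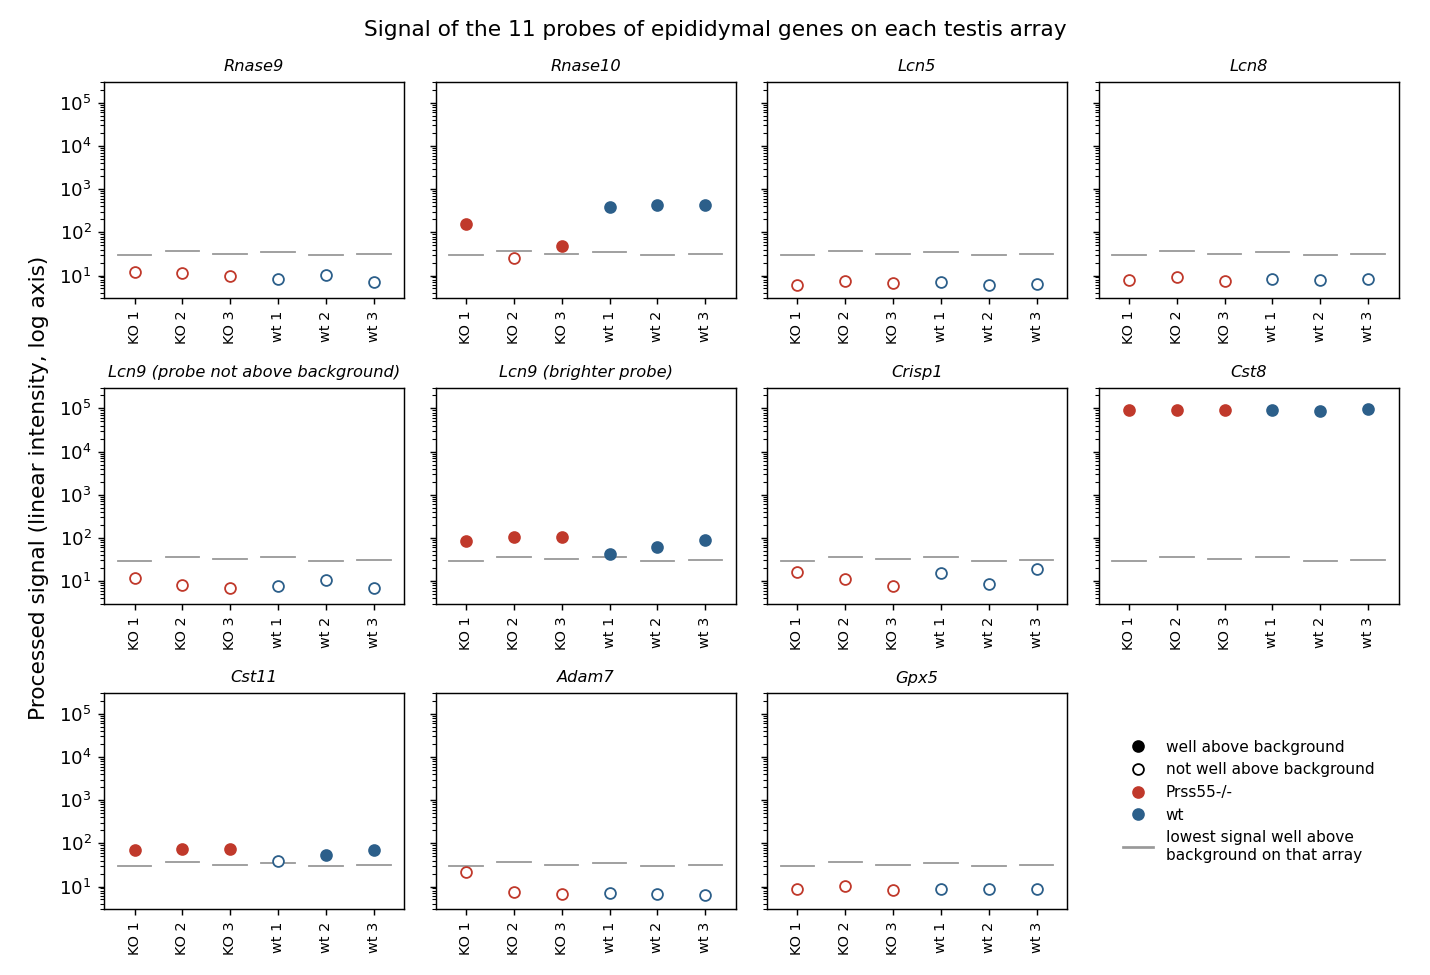
Processed signal of each of the 11 probes (y axis, linear intensity on a log axis) on each array (x axis), with open points where the probe was not well above background and grey bars at the lowest of that array's signals to be so called. *Cst8* lies near the top on all arrays, *Rnase10* is at 378 or more on the wt arrays and at 155 or less on the *Prss55*-/- arrays, and 6 genes have open points throughout.

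The detected genes did not share 1 order of arrays. On the normalized scale *Rnase10* was highest on wt replicate 2 and lowest on *Prss55*-/- replicate 2. *Lcn9* was highest on *Prss55*-/- replicate 2 and lowest on wt replicate 1, and so was *Cst11*. To set the profiles side by side, each gene's normalized log2 signals were centred on their mean over the 6 arrays, and the root mean square of the differences between 2 genes was taken as their distance, a description chosen after the values were seen.

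By this measure *Rnase10* lay 1.95 from *Lcn9*, 1.82 from *Cst11* and 1.62 from *Cst8*, and 98.4%, 94.7% and 23.7% of the other 28605 tested probes lay nearer to *Rnase10* than these genes did. The signals were not scaled, so the distance depends on the size of the changes. A nearly flat probe such as *Cst8* comes out nearer without sharing the array order, and these shares do not rank likeness of order. *Lcn9* and *Cst11* lay 0.154 apart, and 27 of the others (0.0944%) were nearer to *Lcn9* than *Cst11* was. *Cst8* lay 0.435 from *Lcn9* and 0.291 from *Cst11*, where 62.5% of the others were nearer to *Lcn9* than *Cst8* was and 91.5% nearer to *Cst8* than *Cst11* was. *Lcn9* and *Cst11* are both dim and were measured on the same 6 arrays. Over 3436 probes of like signal (mean log2 5.5 to 6.6), the median difference between genotypes was -0.00. The centred level of those probes was -0.00 to 0.03 on every array. The part of array-wide differences in the likeness of *Lcn9* and *Cst11* was not tested. Without wt replicate 1 the differences of *Lcn9* and *Cst11* were 0.28 and 0.15 (limma adjusted p = 0.557 and 0.671), and without wt replicate 3 they were 0.78 and 0.51 (limma adjusted p = 0.106 and 0.103).

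**Figure D3:**
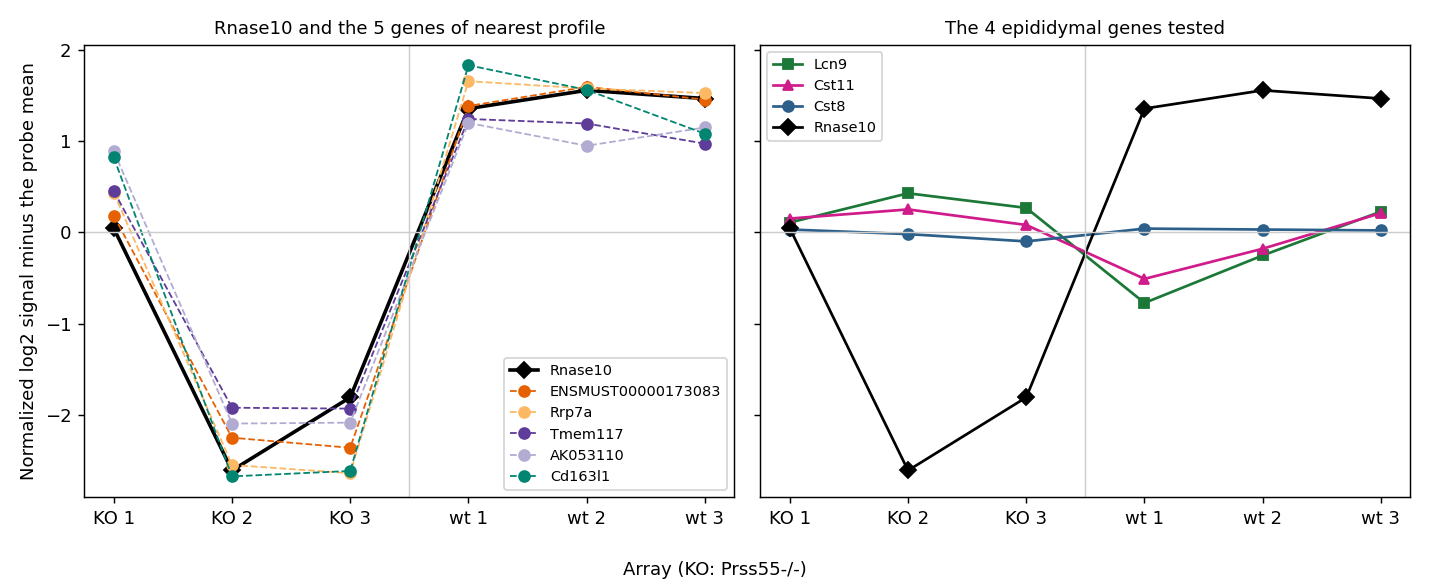
Normalized log2 signal minus each probe's mean over the 6 arrays (y axis) on each array (x axis), for *Rnase10* with the 5 genes of nearest profile (left) and for the 4 epididymal genes tested (right). *Rnase10* lies lowest on *Prss55*-/- replicates 2 and 3, while *Lcn9* and *Cst11* lie lowest on wt replicate 1 and *Cst8* is nearly flat.

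Summed over the 11 probes without *Cst8*, which exceeds the rest by far, the normalized linear signal was 387, 264 and 255 on the *Prss55*-/- arrays and 542, 624 and 650 on the wt arrays. Without *Rnase10* as well it was 230, 239 and 212 in *Prss55*-/- and 154, 179 and 230 in wt testis. The genotypes were apart in the first sum, with wt higher. In the second, wt replicates 1 and 2 lay below every *Prss55*-/- array and wt replicate 3 lay within their range. The 7 probes seen on no array summed to 53 to 78.7 in *Prss55*-/- and to 59.6 to 68.2 in wt testis.

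The 5 tested genes of other names nearest to *Rnase10* were a transcript named ENSMUST00000173083 (distance 0.273), *Rrp7a*, of ribosomal RNA processing (0.396), *Tmem117* (0.413), AK053110 (0.505) and *Cd163l1*, a scavenger receptor relative (0.523). In each of them *Prss55*-/- replicate 1 lay between the wt arrays and the other *Prss55*-/- arrays. They were chosen for likeness to *Rnase10* on these arrays, so sharing its order follows from the choice and is no separate observation. ENSMUST00000173083, 3.62 Mb from *Rnase10* on chromosome 14, read 11.47, 9.04 and 8.93 in *Prss55*-/- and 12.67, 12.88 and 12.74 in wt testis (difference -2.95, limma adjusted p = 0.0995). *Rrp7a*, on chromosome 15, read 12.50, 9.52 and 9.43 in *Prss55*-/- and 13.72, 13.64 and 13.59 in wt testis (difference -3.17, limma adjusted p = 0.123). *Tmem117*, AK053110 and *Cd163l1*, on chromosomes 15, 18 and 7, were detected above background on all wt arrays but on 1 of 3 *Prss55*-/- arrays. These entered the test through their wt arrays. The likeness rests on 6 arrays and on the genotype difference that all of them share.

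Genes of the epididymal epithelium other than the 10 were read from a list of 43, of which 28 have a probe on the array. On all 6 arrays 15 of the 28 were well above background, on some 2, and on none 11, namely *Lcn6*, *Crisp4*, *Spint4*, *Spink12*, *Ovch2*, *Teddm1a*, *Teddm2*, *Pate4*, *Defb2*, *Defb40* and *Defb42*. None of the 16 tested genes passed the limma adjusted p, and their median log2 difference was 0.02, against 0.0031 over all tested probes. The summed linear signal of the list was 91342 to 96046 in *Prss55*-/- and 91259 to 95632 in wt testis, and most of it came from *Wfdc15a* and *Cst12*, which read 14.95 or more on the log2 scale on every array. Without *Prss55*-/- replicate 1, 2 genes of the list passed the adjusted p, while over the whole array 863 probes did in place of 348.

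*Defb15*, a beta-defensin, was the 1 gene of that list past the unadjusted p and 2-fold thresholds. It read 10.06, 6.25 and 6.14 in *Prss55*-/- and 10.10, 10.03 and 10.23 in wt testis (chr8:23040417-23040476). *Prss55*-/- replicate 1 was at the wt level and the other *Prss55*-/- arrays far below, so that the genotypes overlap. The difference was -2.64 (SE 1.04, limma adjusted p = 0.247). *Rnase10* was also highest in *Prss55*-/- testis on replicate 1, but below every wt array.

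**Figure D4:**
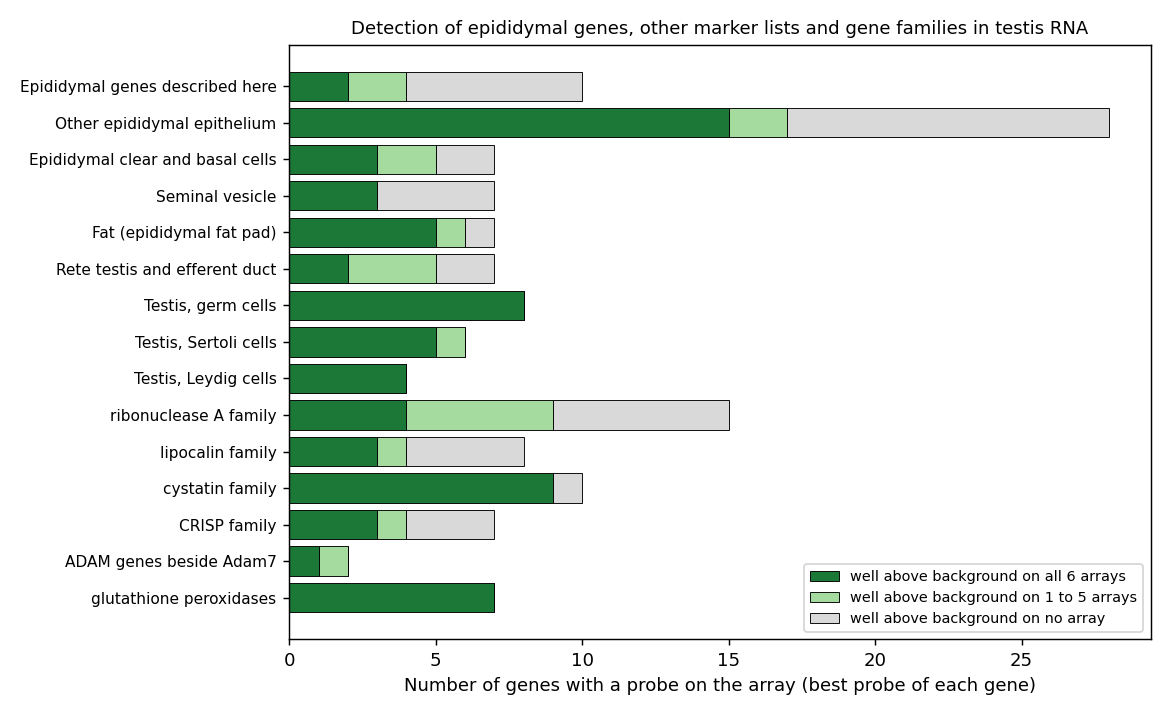
Number of genes (x axis) of the 10 epididymal genes and of each marker or family list (y axis) that were well above background on all 6 arrays, on 1 to 5 or on none, taking the best probe of each gene. The 10 genes and the other epididymal list hold genes seen on no array, whereas all 8 germ cell genes were seen on all 6 arrays.

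Markers of tissue next to the testis were present in part, and some varied with single arrays. Of 7 rete testis and efferent duct genes, 2 were well above background on all arrays, 3 on some, and *Pax8* and *Pax2* on none, and their sum was 3196 to 3683 in *Prss55*-/- and 3786 to 4133 in wt testis. The sums did not overlap, and most of each came from the 3 probes of *Aqp9*, whose small differences are given below. Taken singly, 26.2% of all tested probes did not overlap between the genotypes. The water channel *Aqp1* read 7.94, 6.37 and 6.86 in *Prss55*-/- and 7.66, 8.31 and 7.32 in wt testis. Its *Prss55*-/- replicates 2 and 3 lay below every wt array, but replicate 1 lay within the wt range, unlike that of *Rnase10*. The brighter probe of the sodium-proton exchanger *Slc9a3* read 5.06, 5.62 and 5.81 in *Prss55*-/- and 5.91, 6.26 and 6.70 in wt testis, with no overlap (difference -0.79, limma adjusted p = 0.188). That probe was well above background on only 4 arrays, so part of its readings gives no level and the difference is uncertain.

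The duct keratins went another way. *Krt7* read 8.51, 5.33 and 8.10 on its brighter probe in *Prss55*-/- and 7.32, 8.01 and 7.71 in wt testis, and *Krt19* read 7.04, 3.76 and 6.50 in *Prss55*-/- and 6.22, 6.82 and 6.49 in wt testis. Both were lowest on *Prss55*-/- replicate 2, and their other *Prss55*-/- readings were within or above the wt range. The 3 probes of *Aqp9* differed by -0.16 to -0.09. The part of these tissues in the *Rnase10* difference was not tested.

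Of the 7 fat genes, *Cfd*, *Fabp4*, *Cidec* and *Retn* had their highest reading on wt replicate 3, and *Adipoq* its lowest. *Plin1* was highest on wt replicate 1, at 8.67, and read 8.05 on wt replicate 3 and 8.03 on wt replicate 2. The adipocyte product *Cfd* was at 9.20 there, the only array where it was well above background, and at 2.71 to 2.77 on the others. The brighter *Fabp4* probe was at 8.48 there and at 6.26 to 6.95 on the others, *Cidec* at 8.42 against 7.65 to 7.91, and *Adipoq* at 11.40 against 12.01 to 12.17. The sum of the fat list was 4856 to 5327 in *Prss55*-/- and 4822 to 5608 in wt testis, with *Lep* seen on no array. Most of that sum came from *Adipoq*. *Rnase10* on that array was 8.71, within the range of the other wt arrays, 8.60 to 8.80.

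Of 7 genes of epididymal clear and basal cells, 3 were well above background on all arrays, 2 on some, and *Atp6v0d2* and *Foxi1* on none, with a sum of 447 to 601 in *Prss55*-/- and 557 to 609 in wt testis. Of 7 seminal vesicle genes 3 were seen on all arrays and 4 on none, with a sum of 3242 to 3999 in *Prss55*-/- and 3322 to 5129 in wt testis. The testis markers were there as the label says, with all 8 germ cell genes, 5 of 6 Sertoli cell genes and all 4 Leydig cell genes with a probe well above background on all arrays. The Leydig cell genes differed between arrays. *Star*, the cholesterol carrier of steroid synthesis, read 12.68, 10.49 and 10.46 in *Prss55*-/- and 12.05, 11.42 and 12.34 in wt testis on its brighter probe, and the sum of the list was 25126 to 44208 in *Prss55*-/- and 36446 to 45786 in wt testis. For *Cyp11a1*, which starts that synthesis, the values were 12.63, 11.78 and 12.01 in *Prss55*-/- and 12.92, 12.53 and 12.72 in wt testis on 1 of its 3 probes. In both, *Prss55*-/- replicates 2 and 3 lay below every wt array. Unlike for *Rnase10*, *Prss55*-/- replicate 1 did not, being above every wt array for *Star* and within the wt range for *Cyp11a1*. The share of all tested probes with this pattern was not counted. Another Leydig cell gene, *Hsd3b6*, read 10.47, 10.77 and 10.83 in *Prss55*-/- and 10.17, 10.02 and 10.77 in wt testis. The part of these cells in the *Rnase10* difference was not tested. Neither these 5 lists nor the rete and fat lists had a gene past the limma adjusted p or the 2-fold thresholds. Their median log2 differences were -0.34 for rete, -0.42 for fat, -0.28 for clear and basal and -0.12 for seminal vesicle genes. For Leydig, Sertoli and germ cell genes the medians were -0.58, -0.04 and 0.04, against 0.0031 over all tested probes. Each median rests on only 3 to 12 tested probes. Without *Prss55*-/- replicate 1, 1 Leydig cell gene passed the adjusted p, as did 863 probes of the whole array in place of 348.

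Relatives of the 10 genes were counted by family. Of 15 ribonuclease A genes on the array 4 were tested, and *Rnase2a*, named *Ear11* in the array files, passed, with 6.75, 7.03 and 7.11 in *Prss55*-/- and 6.08, 6.35 and 6.18 in wt testis. It was higher in *Prss55*-/- testis by 0.76 (SE 0.12, limma adjusted p = 0.047, chr14:51875064-51875123), with no overlap. Of all tested probes 26.2% did not overlap, 13.6% with *Prss55*-/- higher, and 1.22% passed the limma adjusted p of 0.05. The median over the 5 tested probes of the 4 genes was 0.64, and their signs were mixed, with *Ang4* at -0.63. Of 9 tested cystatin genes *Cst6* passed, at 6.00, 6.09 and 6.15 in *Prss55*-/- and 6.61, 6.51 and 6.49 in wt testis, a difference of -0.45 (SE 0.06, limma adjusted p = 0.0355), and the median over the 10 tested probes of the 9 genes was -0.20. Each of these families had 0 genes past the adjusted p when any array other than *Prss55*-/- replicate 1 was left out, while without that array 2 ribonuclease and 3 cystatin genes passed, as the probes past it on the whole array went from 348 to 863. Both calls were also lost without a filter on dim probes and by the methods' t-test, and that of *Rnase2a* with slide as a random block.

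Among the 4 tested lipocalin genes, 3 tested CRISP family genes and 7 tested glutathione peroxidases none passed the limma adjusted p or the 2-fold thresholds, with medians of -0.08, -0.03 and 0.01. Without *Prss55*-/- replicate 1 the lipocalins and the glutathione peroxidases had 1 gene each past the adjusted p, while over the whole array 863 probes passed it in place of 348. Of the relatives that lie beside *Adam7*, *Adam28* was tested, with a difference of 0.24, and *Adamdec1* was not. *Adamdec1* read 6.38, 5.07 and 4.92 in *Prss55*-/- and 2.72, 2.70 and 2.70 in wt testis, and was well above background on 2 arrays. Its groups did not overlap, as for 26.2% of all tested probes. Its wt readings lay at the level of *Lcn5*, 2.71 to 2.75, which had surrogate values on all arrays, so no wt level was measured.

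*Rnase10* lies 28.8 kb from *Rnase9* and 13.06 Mb from the *Prss55* probe on chromosome 14. In a window of 1 Mb on either side of it, chosen after the values were seen, 38 other probes of 29 genes were tested, and 20 of them (52.6%) had a limma unadjusted p below 0.05, 10 higher and 10 lower in *Prss55*-/- testis, against 19.1% of all tested probes. Among these neighbours *Pnp*, a purine nucleoside phosphorylase, differed alike on both probes (-1.47 and -1.38, limma adjusted p = 0.0926 and 0.111). *Rnase4* differed by 0.92 and 0.64 (limma adjusted p = 0.0893 and 0.143), and *Ang*, which shares its promoter region with *Rnase4*, by -0.15 (limma adjusted p = 0.377). Only *Ear11* and the transcript NAP102386-1 (1.20, limma adjusted p = 0.00746) passed the adjusted p, both higher.

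**Figure D5:**
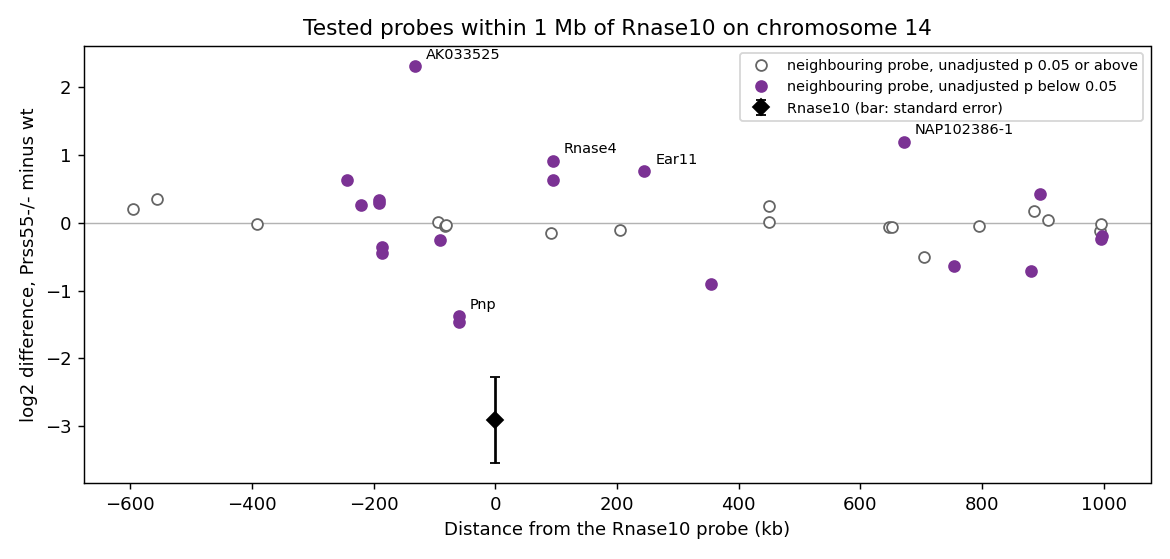
Log2 difference between *Prss55*-/- and wt testis (y axis) of each tested probe against its distance from the *Rnase10* probe in kb (x axis), with filled points for an unadjusted p below 0.05 and the standard error on *Rnase10*. *Rnase10* at -2.91 is the lowest point, *Pnp* lies at -1.47 and -1.38, and 10 filled points lie above 0.

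The windows of the other genes differed. Around *Adam7*, 4.42 Mb from *Prss55*, 64% of 25 tested probes had an unadjusted p below 0.05, and 2 passed the limma adjusted p, both lower in *Prss55*-/- testis. Around *Gpx5* on chromosome 13 the share was 39.4% of 33 probes. It was 10.6% of 94 around *Lcn5* and *Lcn8*, 10.9% of 92 around *Lcn9*, 10.5% of 19 around *Cst8* and around *Cst11*, and 7.69% of 13 around *Crisp1*, with 0 probes past the adjusted p in any of these. Neighbouring probes are not independent, and windows of genes near each other share probes.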

How the data were processed

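For every array the authors deposited scanner output of Agilent Feature Extraction 10.7, with a processed signal that is a linear intensity after background correction within that array, and a matrix of quantile-normalized log2 values of the same arrays. The files name mouse build mm9. Control spots were left out and outlier spots set aside. Signals below 1 were set to 1, log2 values were quantile-normalized, and spots of a probe were averaged. The 28606 probes that every array of 1 or both genotypes read well above background were fitted with limma 3.58.1 in R 4.3.3 (lmFit, eBayes, two-sided, Benjamini-Hochberg over all tested probes, 2 values missing among them, none of a probe of the 10 genes). A gene was called if any probe was. Each probe took its current symbol from the RefSeq gene table (GRCm38.p6), through its accession for 27668 probes. Summaries used pandas 2.3.3 and numpy 2.4.6 in Python 3.11.15, exact tests scipy 1.17.1, and plots matplotlib 3.10.9.

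Named were the 10 genes, *Prss55*, each list gene past a threshold and the 5 genes nearest to *Rnase10*; markers, neighbours and *Adamdec1* named beyond these were chosen after their values were seen. The 10 genes and all lists were chosen with earlier results of these data known. Alternatives were 75th percentile scaling, normexp (offset 50), other filters, the methods' t-test, slide or replicate block, the deposited log2 matrix and each array left out. On simulated data with 200 of 28606 probes changed, 177 were found with 13 false calls, and 144 of 150 changed by 2-fold or more were found. The simulation drew independent normal noise of equal spread in both genotypes and no slide effect, so these rates check the code and need not hold for the real arrays. The number of arrays limits the precision.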

Additional observations from a re-analysis of the deposited data

How the results depend on the processing

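The log2 differences of the 4 tested genes kept their direction under every alternative that gave a value. For other genes the alternatives were read as counts of calls. The log2 differences stayed between 0.28 and 0.78 for *Lcn9*, -0.09 and -0.01 for *Cst8*, and 0.03 and 0.51 for *Cst11*, none past the limma adjusted p of 0.05. *Rnase10* (-2.91, limma adjusted p = 0.0926) passed it with normexp (-1.79, limma adjusted p = 0.0212), where 1 of the 10 genes was then called in place of 0, and without *Prss55*-/- replicate 1 (-3.66, limma adjusted p = 0.00424), again 1 gene. Leaving out each array in turn, its difference ran from -3.66 to -2.34 and the count of the 10 genes called from 0 to 1. With probes tested only if well above background on all arrays, *Rnase10* and *Cst11* were not tested, so that 0 of the 10 genes passed the 2-fold thresholds in place of 1. The 348 probes past the adjusted p became 137 without a filter, 81 by the methods' t-test and 43 to 863 with 1 array left out. The 173 past the 2-fold thresholds became 73 with normexp, 370 without a filter, 94 with the stricter filter, 115 by the methods' t-test and 162 to 284 with 1 array left out. The 2 genes of the lists past the adjusted p became 0 without a filter, 0 by the methods' t-test, 1 with slide as a random block and 0 to 10 with 1 array left out. The causes of these changes were not tested.

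A figure legend of the study speaks of 3 pairs of mice, and the labels do not say whether replicate numbers mark these pairs. The deviations of same-numbered arrays from their group means had correlations of -0.05, -0.02 and -0.11, which cannot show how mice were paired. The reported setting treats the samples as unpaired. With a replicate block the probes called were 13, the list genes 0 and the limma adjusted p of *Rnase10* 0.202. For the 6 genes well above background on no array, no level was measured.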
